A study of Homo sapiens with 12 samples.

Results

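The lipid storage genes PLIN2, PLIN3, PLIN4, PLIN5, CIDEC, PNPLA2, LPIN1, FABP4, FABP5 and CFD were followed through RNA sequencing of xenograft tumours grown from Cal33 cells. Cal33 is an established human line of squamous carcinoma of the head and neck. The 10 genes were chosen by name, as genes of the lipid droplet and of adipocytes, when results of both comparisons in these data were already known. Their gene IDs are 10 of the 60649 in each deposited count table, and all 10 were found in both. Because of that choice, the changes given for these genes describe them, and a count of genes past the threshold supports nothing beyond itself.

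The study blocked TEAD proteins, the DNA-binding partners of the co-activators YAP and TAZ, in 2 experiments of 2 groups each, with 3 tumour libraries a group. In the first, tumours under SW-682, a small molecule that inhibits TEAD (group smTEADi), were compared with Vehicle tumours. In the second, tumours labelled pTEADi (DOX+), which were given doxycycline to switch on the inhibitor pTEADi, were compared with Control (DOX-) tumours. Doses, times, host strain and the host's own cells are not given in the sources used here, nor is it stated whether the Control cells carried the same construct. Doxycycline itself and the inhibitor it induced cannot be told apart in the second comparison. All tumours came from 1 cell line. Separate animals are not named for the 3 libraries within a group, so the spread that the p-values rest on may be technical. Whether reads of host cells were separated before counting is not stated either, and in bulk tissue fewer cells of a type and less RNA per cell cannot be told apart.

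A lipid droplet is a core of triglyceride and sterol ester inside a single layer of phospholipid, coated by proteins of the perilipin family. Fatty acids are carried through the cytoplasm by fatty acid binding proteins, built into triglyceride by a chain of acyltransferases and a phosphatidate phosphatase, and set free again by lipases that work at the droplet surface. Adipocytes store most of the body's fat this way, and keratinocytes and sebocytes of squamous epithelium also make and store neutral lipid. Many genes of this system are standard targets of the PPAR nuclear receptors.

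The libraries held 13576494 to 15433679 expected counts. Vehicle 2 and smTEADi 1 lay apart from their groups on the first principal component of the SW-682 experiment, at -6.81 against -30.7 and -36.5 for the other Vehicle libraries, and at 50 against 13.7 and 10.3 for the other smTEADi libraries. Results of that experiment that these libraries move are given below without them. The name adipocyte-type was not borne out by the defining markers of adipocytes. ADIPOQ and LEP had 0 counts in all 12 libraries, TRARG1 had 0 or 1, PLIN1 had 2 to 16 and AQP7 had 1 to 12. The keratin KRT5 of basal squamous cells stood at 15020 to 24878 CPM (reads of the gene relative to the scaled library total) and the squamous transcription factor TP63 at 229 to 357 CPM. The genes are therefore called lipid storage genes here, a short name that also covers CFD, which encodes a secreted protease. With reads aligned to the human genome, low counts of adipocyte markers do not show that host adipocytes were few.

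With pTEADi, 4 of the 10 genes rose: the droplet coat genes PLIN3 and PLIN4, the triglyceride lipase PNPLA2 and the serine protease CFD, by 0.40 to 0.87 on the log2 scale, and 0 fell. Of all 14705 genes tested there, 12.7% rose and 13.6% fell. With SW-682, 0 of the 10 passed the threshold in either direction, where 2.02% of 14829 genes rose and 3.48% fell. FABP4, FABP5 and PNPLA2 were nonetheless higher in every smTEADi library than in every Vehicle library, which held for 15.7% of all genes. CFD was lower in every one, which held for 17.3%. PLIN2, PLIN5 and CIDEC were at or near 0 in all 4 groups. A gene counts as past the threshold when its two-sided p from edgeR's quasi-likelihood test, adjusted over all genes tested by the Benjamini-Hochberg method, is under 0.05. Of the 10 genes, 7 had enough counts to be tested in each comparison.

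Measured as CPM per kilobase of the canonical transcript, the 9 genes with any counts spanned more than 4 orders of magnitude. FABP5 stood highest in Vehicle tumours at 4508 ± 942 CPM per kb (SD, n = 3), the 29th highest gene of all by mean CPM. PLIN3 followed at 42.1 ± 7.96, PNPLA2 at 27.9 ± 3.06 and FABP4 at 25.7 ± 3.77 CPM per kb. PNPLA2 and FABP4 did not differ beyond their spread in Vehicle tumours. CFD stood at 12.5 ± 1.98 and LPIN1 at 2.81 ± 0.54 CPM per kb. PLIN4 had 0.31 ± 0.14, PLIN2 had 0.21 ± 0.12 and PLIN5 had 0.19 ± 0.11 CPM per kb, and these last 3 did not differ beyond their spread. The order of the middle genes depended on the group: in pTEADi tumours PLIN3 (64.6 ± 3.46) and PNPLA2 (63.9 ± 8.06 CPM per kb) were level, and CFD (39.1 ± 5.39) stood above FABP4 (13.7 ± 3.66 CPM per kb).

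**Figure D1:**
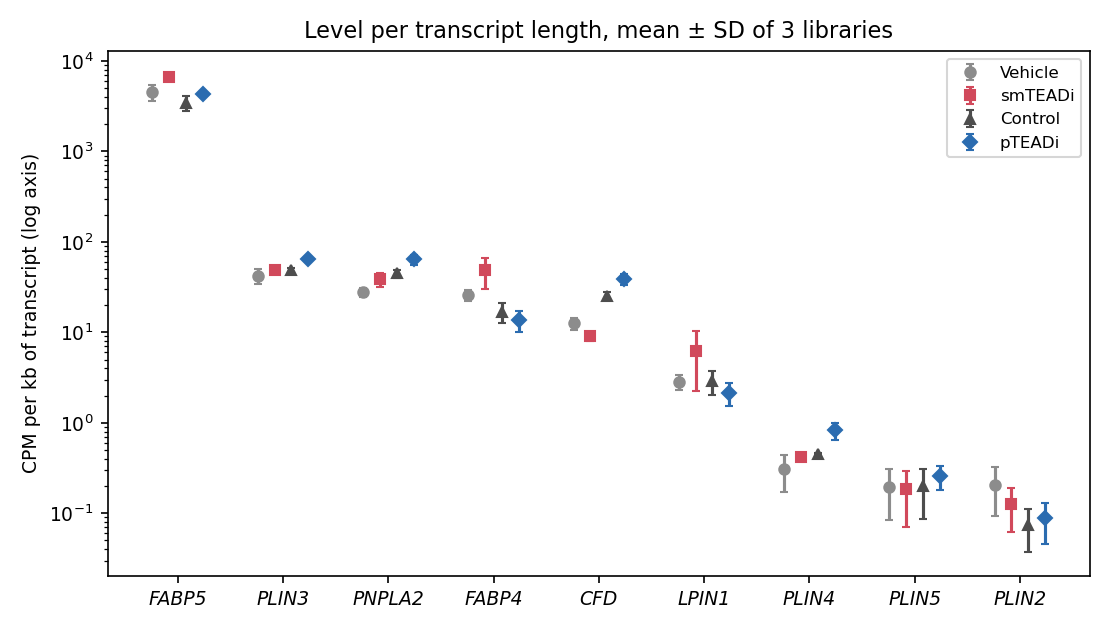
Mean level per transcript length of 9 lipid storage genes, in CPM per kilobase of the canonical transcript on a log axis, with bars of 1 SD over the 3 libraries of each group. CIDEC, with 0 counts in every library, is not drawn. FABP5 stands near 4508 CPM per kb in Vehicle tumours, and PLIN2 and PLIN5 near 0.2.

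Promoter windows of the genes are shown because the inhibitors act on TEAD proteins, which bind DNA, and because 4 of the 10 genes rose with pTEADi. RefSeq (GRCh38.p14) gave 11 windows for 8 of the 10 genes, and the 250 bases before each start were searched on both strands for the TEAD motif GGAATG, which reads CATTCC on the other strand. They were also searched for AGGTCA, the half-site of PPAR and RXR receptors, which reads TGACCT on the other strand. The TEAD motif occurs in 11.9% and the half-site in 12% of 34788 distinct windows of that length. Of the 11 windows, 1 held the TEAD motif, in an alternative promoter of LPIN1 at chr2:11677294-11677543 (plus strand), 204 bases before the start. Another held the half-site, that of PNPLA2 at chr11:818664-818913 (plus strand), 239 bases before the start. No match was found in the windows of PLIN4 at chr19:4518487-4518736 (minus strand) and PLIN2 at chr9:19127493-19127742 (minus strand), nor in those of PLIN3, PLIN5, CIDEC and CFD. Capitals mark the matches in the sequences, which run 5′ to 3′ on the gene's strand.
LPIN1, alternative promoter: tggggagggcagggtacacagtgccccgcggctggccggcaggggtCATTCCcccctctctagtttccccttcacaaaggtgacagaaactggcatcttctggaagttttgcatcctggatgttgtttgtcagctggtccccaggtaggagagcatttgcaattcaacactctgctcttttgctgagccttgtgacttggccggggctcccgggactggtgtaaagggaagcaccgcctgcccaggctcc
PNPLA2: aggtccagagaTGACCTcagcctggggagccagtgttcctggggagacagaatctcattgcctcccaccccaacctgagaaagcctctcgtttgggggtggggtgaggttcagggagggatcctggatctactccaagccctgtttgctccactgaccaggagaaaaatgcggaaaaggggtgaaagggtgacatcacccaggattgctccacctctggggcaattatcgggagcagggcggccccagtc
PLIN4: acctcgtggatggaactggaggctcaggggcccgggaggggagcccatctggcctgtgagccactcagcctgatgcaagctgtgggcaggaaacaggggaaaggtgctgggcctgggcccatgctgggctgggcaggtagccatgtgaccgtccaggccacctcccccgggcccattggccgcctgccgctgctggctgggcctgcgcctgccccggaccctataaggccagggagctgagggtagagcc
PLIN2: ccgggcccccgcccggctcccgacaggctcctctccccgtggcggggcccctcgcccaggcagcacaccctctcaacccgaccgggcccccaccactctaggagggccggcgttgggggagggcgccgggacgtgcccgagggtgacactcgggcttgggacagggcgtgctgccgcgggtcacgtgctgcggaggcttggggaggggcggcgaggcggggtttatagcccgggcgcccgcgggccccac
A match is a run of letters and not a bound site, and the lack of one says only that these letters are absent from the window. The PLIN2 window, with 78.0% G and C, was richer in these bases than 94.3% of windows, while the LPIN1 and PNPLA2 windows, both at 58.4%, lay near the middle.

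The perilipins coat the droplet. PLIN3 (ENSG00000105355.9, chromosome 19, 4838341 to 4867694, minus strand, GRCh38) is the widely expressed member that moves from the cytoplasm onto young droplets. Its level was 81.2, 114 and 86.4 CPM in Vehicle libraries 1 to 3 and 108, 107 and 111 CPM in smTEADi libraries 1 to 3. Vehicle 2 was above every smTEADi library and the others were below, so the groups overlapped. The log2 fold change with SW-682 was 0.21 ± 0.13 (SE, adjusted p = 0.331), with 0.11 without Vehicle 1 and 0.37 without Vehicle 2. In the second experiment PLIN3 had 103, 113 and 110 CPM in Control and 140, 153 and 140 CPM in pTEADi libraries. All pTEADi libraries lay above all Control libraries, and PLIN3 rose by 0.40 ± 0.08 on the log2 scale (adjusted p = 0.00409). Without Vehicle 2 and smTEADi 1, the SW-682 change of PLIN3 was 0.38 ± 0.10 (adjusted p = 0.0276), past the threshold. Those 2 libraries were chosen after seeing the data, and 13.9% of all genes passed in that fit.

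PLIN4 (ENSG00000167676.4, chromosome 19, 4502192 to 4518486, minus strand) encodes a long perilipin with an amphipathic repeat, best known from adipocytes. It was weakly expressed, with 21 to 84 counts per library. Vehicle libraries had 3.02, 1.48 and 1.51 CPM and smTEADi libraries 2.58, 2.76 and 2.77 CPM. Vehicle 1 was the highest of these 6 and the other Vehicle libraries the lowest, and the log2 fold change was 0.43 ± 0.34 (adjusted p = 0.433). It was 0.85 without Vehicle 1, and 0.26 without Vehicle 2 or without Vehicle 3. Control libraries had 3.0, 2.94 and 2.86 CPM and pTEADi libraries 6.02, 6.07 and 4.02 CPM. Every pTEADi library was above every Control library, and PLIN4 rose by 0.87 ± 0.24 (adjusted p = 0.0179). That call was lost without pTEADi 1 (adjusted p = 0.0675), without pTEADi 2 (0.0803) and without Control 1 (0.0534), with log2 changes of 0.78, 0.78 and 0.88. The end of PLIN4 overlaps another gene, and the labels do not say whether reads were counted by strand.

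PLIN2 and PLIN5 were barely detected. PLIN2 (ENSG00000147872.10, chromosome 9, 19108375 to 19149290, minus strand) encodes the perilipin found on droplets of most cell types. It had 3, 9 and 5 counts in Vehicle, 5, 2 and 3 in smTEADi, 3, 2 and 1 in Control and 1, 3 and 3 in pTEADi libraries. All 4 groups overlapped at these few counts. Pooled over 3 libraries, Vehicle tumours had 0.404 CPM of PLIN2, with an exact Poisson 95% interval of 0.235 to 0.647 that covers counting error only. In smTEADi tumours it was 0.228 CPM (0.109 to 0.419). In the second experiment Control tumours had 0.143 CPM (0.0526 to 0.312) and pTEADi tumours 0.164 CPM (0.0659 to 0.338). The genes beside PLIN2 on chromosome 9, chosen after the values were seen, were well covered: RRAGA had 752 to 947 counts per library, HAUS6 179 to 435, DENND4C 333 to 872 and RPS6 6297 to 9768. Why PLIN2 was so low was not tested.

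PLIN5 (ENSG00000214456.8, chromosome 19, 4522531 to 4535224, minus strand), the perilipin of tissues that burn fat, had 11, 3 and 7 counts in Vehicle, 8, 2 and 9 in smTEADi, 11, 3 and 7 in Control and 10, 10 and 6 in pTEADi libraries. No group stood apart. CIDEC (ENSG00000187288.12, chromosome 3, 9866711 to 9880255, minus strand), which drives the growth of the large droplet of adipocytes by fusing smaller ones, had 0 counts in all 12 libraries. That allows up to 3 counts, or 0.194 to 0.221 CPM, per library. None of PLIN2, PLIN5 and CIDEC passed the filter on low counts in either comparison, so no change is given for them there.

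**Figure D2:**
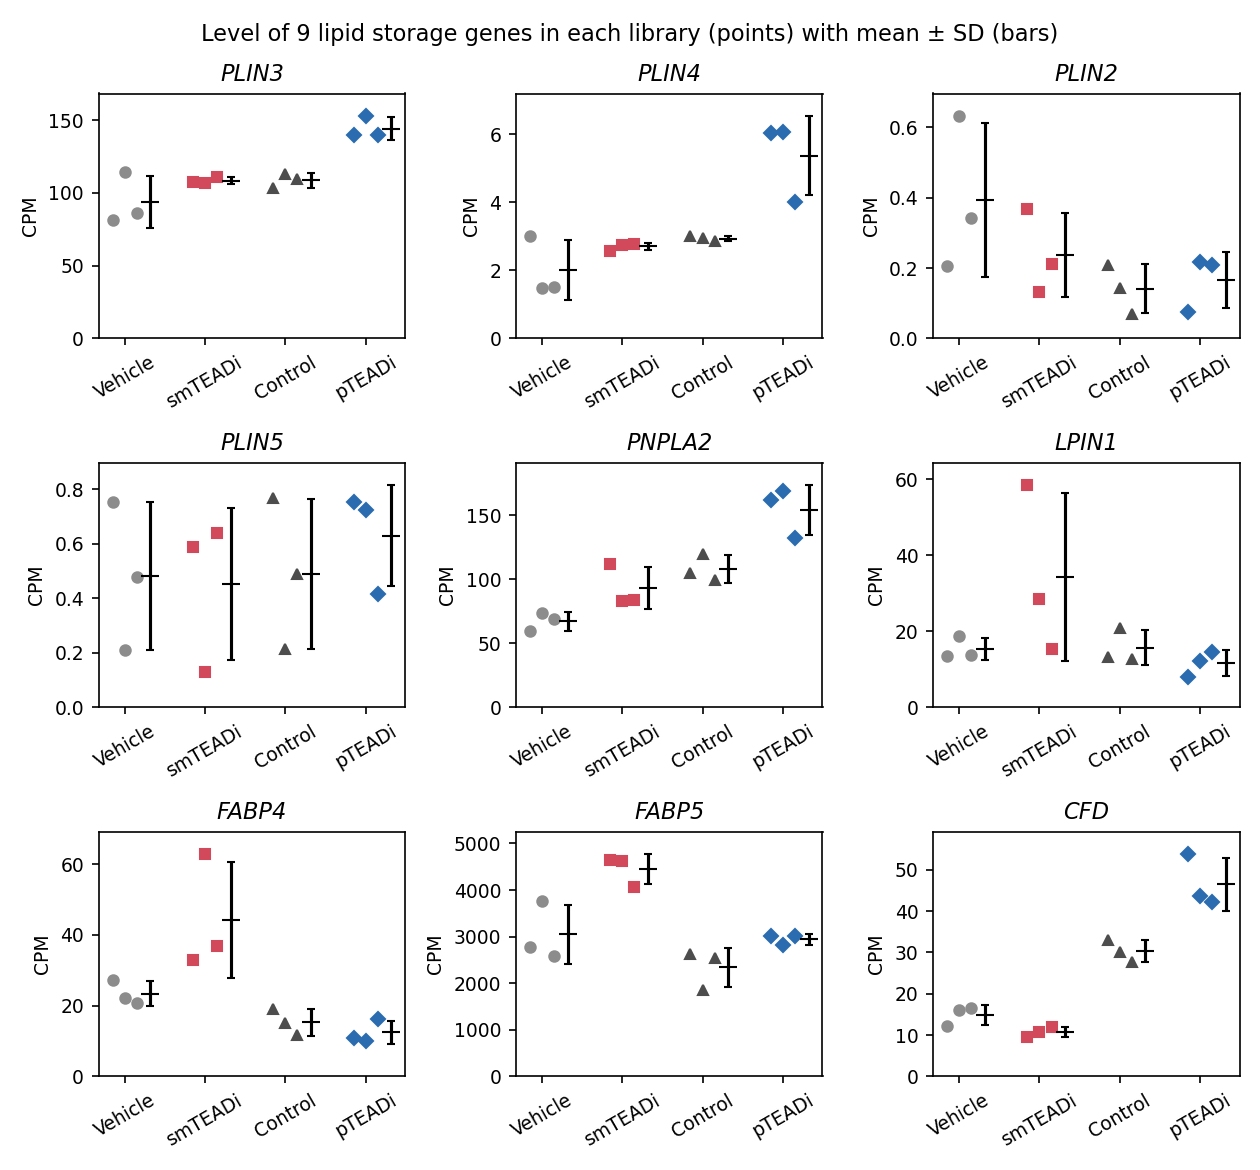
Level of 9 lipid storage genes in each library in TMM-scaled CPM, by group, with the mean and 1 SD over 3 libraries beside the points. In PLIN3, PLIN4, PNPLA2 and CFD every pTEADi library lies above every Control library, and PLIN2 and PLIN5 stay under 0.8 CPM throughout.

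PNPLA2 and LPIN1 act on opposite sides of the triglyceride pool. PNPLA2 (ENSG00000177666.17, chromosome 11, 818914 to 825573, plus strand) encodes ATGL, the lipase that takes the first fatty acid off a stored triglyceride. It had 59.4, 73.9 and 68.9 CPM in Vehicle and 112, 83.1 and 84.2 CPM in smTEADi libraries. All smTEADi libraries were above all Vehicle libraries, but the log2 fold change of 0.47 ± 0.14 missed the threshold (adjusted p = 0.0739). Without smTEADi 1 and Vehicle 2, a choice made after seeing the data, it was 0.38 ± 0.11 and passed (adjusted p = 0.0377). In that fit 13.9% of all genes passed. Control libraries had 105, 120 and 99.3 CPM and pTEADi libraries 162, 169 and 132 CPM of PNPLA2. Every pTEADi library was again above every Control library, and PNPLA2 rose by 0.51 ± 0.11 (adjusted p = 0.00487). An antisense gene overlaps PNPLA2, and without a stated strand setting its reads cannot be told apart from those of PNPLA2.

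LPIN1 (ENSG00000134324.12, chromosome 2, 11677595 to 11827409, plus strand) encodes lipin 1, the phosphatase that makes the diacylglycerol from which triglyceride is built. It had 13.6, 18.7 and 13.7 CPM in Vehicle and 58.6, 28.6 and 15.5 CPM in smTEADi libraries. smTEADi 1 was far above every other library, while smTEADi 3 lay within the Vehicle range. The log2 fold change was 1.16 ± 0.40 (adjusted p = 0.102), and 0.53 (adjusted p = 0.284) without smTEADi 1. In the second experiment LPIN1 had 13.2, 21.0 and 12.8 CPM in Control and 7.98, 12.3 and 14.6 CPM in pTEADi libraries. These groups overlapped, with a log2 fold change of -0.43 ± 0.23 (adjusted p = 0.205). It was -0.16 without Control 2 and -0.21 without pTEADi 1, and passed with no low-count filter (adjusted p = 0.0392).

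The level of 13 hypoxia genes had the order of LPIN1 within each group of the SW-682 experiment, but not across its groups. Their mean log2 CPM was 7.89, 7.72 and 6.61 in smTEADi libraries 1 to 3. It was 7.33, 7.62 and 7.36 in Vehicle libraries 1 to 3. At the lowest of these levels, smTEADi 3 had more LPIN1 (15.5 CPM) than Vehicle 1 and Vehicle 3 (13.6 and 13.7 CPM). HILPDA, a hypoxia-induced droplet protein that inhibits the PNPLA2 enzyme, had the LPIN1 order in smTEADi libraries at 101, 42.6 and 15.6 CPM. With SW-682, 0 of the 13 hypoxia genes rose and 0 fell, where 2.02% of all genes rose and 3.48% fell. With pTEADi, 12 of the 13 fell and 0 rose, where 13.6% of all genes fell and 12.7% rose. The hypoxia level was 6.6 to 6.7 in pTEADi against 7.23 to 7.92 in Control libraries. Within Control libraries the hypoxia level had the order of LPIN1, and within pTEADi libraries it did not. The part of the hypoxia level in the LPIN1 values was not tested.

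**Figure D3:**
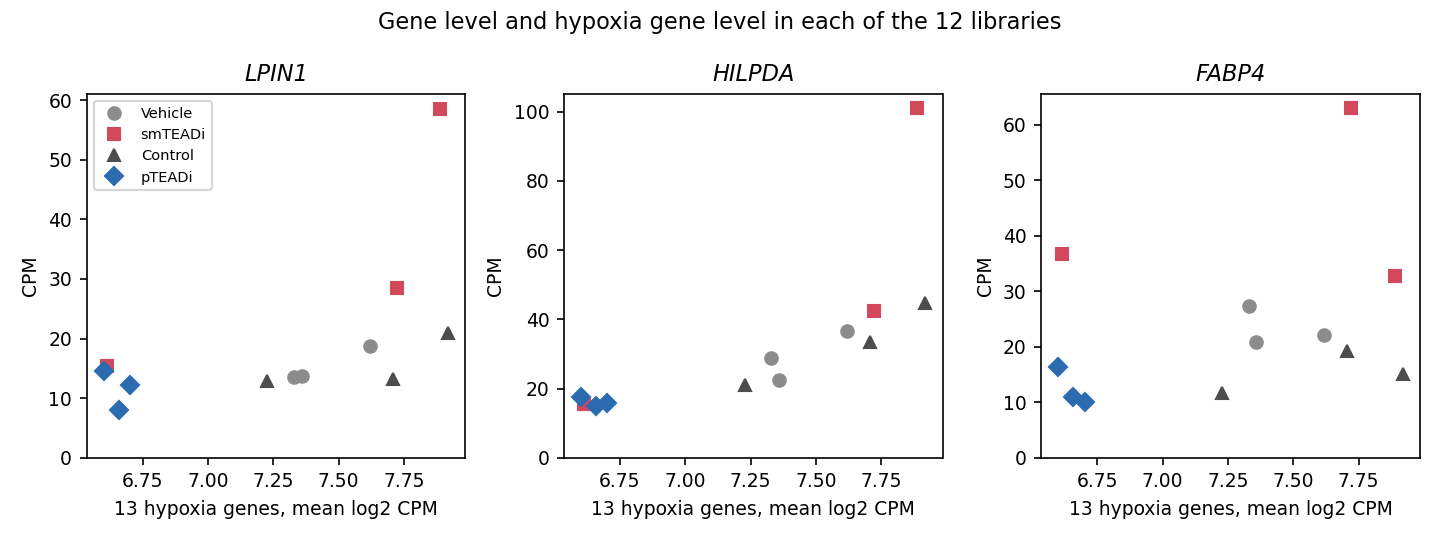
LPIN1, HILPDA and FABP4 (CPM) against the mean log2 CPM of 13 hypoxia genes, with 1 point for each of the 12 libraries. LPIN1 and HILPDA are highest in smTEADi 1 (58.6 and 101 CPM), which also has one of the highest hypoxia levels (7.89), whereas FABP4 is highest in smTEADi 2.

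The fatty acid binding proteins carry fatty acids in the cytoplasm. FABP5 (ENSG00000164687.11, chromosome 8, 81280536 to 81284777, plus strand) is the epidermal member and by far the most abundant of the 10 genes. It had 2783, 3773 and 2585 CPM in Vehicle and 4652, 4628 and 4075 CPM in smTEADi libraries. The smTEADi libraries were all higher, with Vehicle 2 nearest to them, and the log2 fold change was 0.55 ± 0.17 (adjusted p = 0.0763). Without Vehicle 2 it was 0.73 and passed the threshold (adjusted p = 0.0168). It also passed without Vehicle 2 and smTEADi 1 together, at 0.70 ± 0.11 (adjusted p = 0.00217). That pair was chosen after seeing the data, and 13.9% of all genes passed in that fit. Control libraries had 2619, 1849 and 2551 CPM and pTEADi libraries 3011, 2810 and 3016 CPM of FABP5. The pTEADi libraries were all higher here too, and the log2 fold change of 0.33 ± 0.13 missed the threshold (adjusted p = 0.0892). It was 0.18 without Control 2, and passed without Control 3 (adjusted p = 0.035), with DESeq2 (0.0219) and with no low-count filter (0.0173). The tables list 15 FABP5 pseudogenes whose reads could be shared with FABP5, and their summed counts came to 0.494% to 0.714% of its own.

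FABP4 (ENSG00000170323.9, chromosome 8, 81478419 to 81483236, minus strand) is the adipocyte member, also known from macrophages and small blood vessels. It had 27.4, 22.1 and 20.9 CPM in Vehicle and 32.8, 63.0 and 36.8 CPM in smTEADi libraries. All smTEADi libraries were higher, smTEADi 2 most of all. The log2 fold change was 0.92 ± 0.23 (adjusted p = 0.0518), and 0.57 (adjusted p = 0.0768) without smTEADi 2. Without smTEADi 1 it was 1.09 and passed the threshold (adjusted p = 0.0398). It also passed without smTEADi 1 and Vehicle 2 together, at 1.05 ± 0.22 (adjusted p = 0.00809). That pair was chosen after seeing the data, and 13.9% of all genes passed in that fit. Control libraries had 19.2, 15.1 and 11.7 CPM and pTEADi libraries 11.0, 10.1 and 16.3 CPM of FABP4. These overlapped, and the log2 fold change was -0.30 ± 0.21 (adjusted p = 0.335). It ran from -0.53 without pTEADi 3 to -0.11 without Control 1.

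Markers of other cells that express FABP4 were set beside these values. Reads were aligned to the human genome, and how many reads of host cells were counted is not known. Low marker counts therefore do not show that such host cells were few. The summed level of 9 endothelial markers was 21.4 to 37.1 CPM in Vehicle, 39.8 to 64.3 in smTEADi, 15.6 to 25.6 in Control and 31.8 to 43.2 in pTEADi libraries. VWF alone made up 88.4% of it, and 7 of the 9 genes stayed under 10 counts in every library. PECAM1 had 0 to 2 counts, CDH5 0 or 1, and KDR 0. Of 12 macrophage and leukocyte markers, 6 were at 0 throughout, among them C1QA, CD163 and MRC1, and the summed level was 20.7 to 29.1 CPM in Vehicle and 14.0 to 42.0 CPM in smTEADi libraries. It was 24.5 to 45.7 CPM in Control and 19.1 to 24.0 CPM in pTEADi libraries, without overlap but by a narrow gap. Of single genes, 21.7% were lower without overlap with pTEADi. Among 4 macrophage and leukocyte genes tested, 1 fell and 0 rose with pTEADi, where 13.6% of all genes fell and 12.7% rose. With SW-682, 0 of the 4 passed.

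CFD (ENSG00000197766.8, chromosome 19, 859453 to 867884, plus strand) encodes adipsin, or complement factor D, a secreted serine protease of the alternative complement pathway and a classical adipocyte product. It had 12.2, 16 and 16.5 CPM in Vehicle and 9.57, 10.7 and 12.1 CPM in smTEADi libraries. Every smTEADi library was below every Vehicle library, by a narrow gap, and the log2 fold change of -0.47 ± 0.17 missed the threshold (adjusted p = 0.109). Control libraries had 33.0, 30.2 and 27.8 CPM and pTEADi libraries 53.9, 43.6 and 42.1 CPM. All pTEADi libraries were higher, and CFD rose by 0.62 ± 0.12 (adjusted p = 0.00255). The direction of CFD thus differed between the experiments, with a difference of the log2 changes of 1.09 ± 0.20 that did not pass the threshold (adjusted p = 0.157). The end of CFD overlaps a gene on the other strand.

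Of 18 adipocyte markers outside the 10 genes, 11 stayed under 10 counts in every library and 5 of those were at 0 in all. Their summed level was 94.1 to 97.0 CPM in Vehicle, 114 to 131 in smTEADi, 97.2 to 102.5 in Control and 142 to 156 in pTEADi libraries. CEBPA, a transcription factor that keratinocytes also express, made up 64.9% of it, and rose with SW-682 (0.50 ± 0.11, adjusted p = 0.0405) and with pTEADi (0.85 ± 0.12, adjusted p = 0.000379). The level of the sebocyte list, 12 genes, was 92.4 to 153 CPM in Vehicle, 193 to 279 in smTEADi, 76.2 to 89.6 in Control and 151 to 183 in pTEADi libraries. KRT79, a keratin of hair follicle and sebaceous ducts, made up 65.3% of it, and 5 of the 12 genes stayed under 10 counts in every library. Of 6 sebocyte genes tested, 1 rose and 0 fell with SW-682, and 2 rose and 2 fell with pTEADi. Of all genes tested, 2.02% rose and 3.48% fell with SW-682, and 12.7% rose and 13.6% fell with pTEADi. Fibroblast markers summed to 133 to 139 CPM in Vehicle and 108 to 124 CPM in smTEADi libraries. They summed to 175 to 189 CPM in Control and 141 to 174 CPM in pTEADi libraries. COL1A1 made up 63.5% of that sum, and 5 of the 11 genes stayed under 10 counts in every library. In both experiments the adipocyte, sebocyte and endothelial sums were higher in every treated library than in its controls, and the fibroblast sum was lower. Each of these sums came mostly from 1 gene (CEBPA, KRT79, VWF and COL1A1), so it does not show that the list moved together. Of single genes, 15.7% were higher and 17.3% lower without overlap with SW-682, and 20.3% and 21.7% with pTEADi. Of 5 fibroblast genes tested, FBLN1 fell with SW-682 (-0.73 ± 0.15), and FBLN1 (-0.71 ± 0.08) and FAP (-0.92 ± 0.25) fell with pTEADi. Skeletal muscle markers summed to 36.5 to 51.1 CPM in Vehicle, 33.2 to 48.4 in smTEADi, 45.6 to 62.2 in Control and 61.0 to 67.7 CPM in pTEADi libraries. Of 16 squamous differentiation genes, 14 rose with pTEADi, where 12.7% of all genes did. With SW-682, 3 rose, where 2.02% of all genes did. The 3 became 15 without Vehicle 2, 1 without smTEADi 1 or smTEADi 2, and 0 without smTEADi 3, Vehicle 1 or Vehicle 3. The part of these cell type and differentiation genes in the values of the 10 genes was not tested. With reads aligned to the human genome, low counts of these markers do not show that host cells of a type were few.

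Over all genes the SW-682 comparison called 816, and 0 without smTEADi 3, Vehicle 1 or Vehicle 3, so every call with SW-682 given here is lost without any 1 of those libraries. Of the 7 lipid storage genes tested there, 5 had an unadjusted p under 0.05 (FABP4, FABP5, LPIN1, PNPLA2 and CFD), where 27.8% of all genes did. DESeq2 called 3 (FABP4, FABP5 and PNPLA2), and 12.8% of all genes. The fit without smTEADi 1 and Vehicle 2, in which PLIN3, FABP5, FABP4 and PNPLA2 passed, called 13.9% of all genes. With pTEADi the groups did not overlap in 5 of the 7, PLIN3, PLIN4, FABP5, PNPLA2 and CFD, all on the higher side. That held for 20.3% of all genes, and for 21.7% on the lower side. The median log2 change of the 7 tested genes was 0.47 with SW-682 and 0.40 with pTEADi, beside 0.01 and -0.0007 for all genes.

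**Figure D4:**
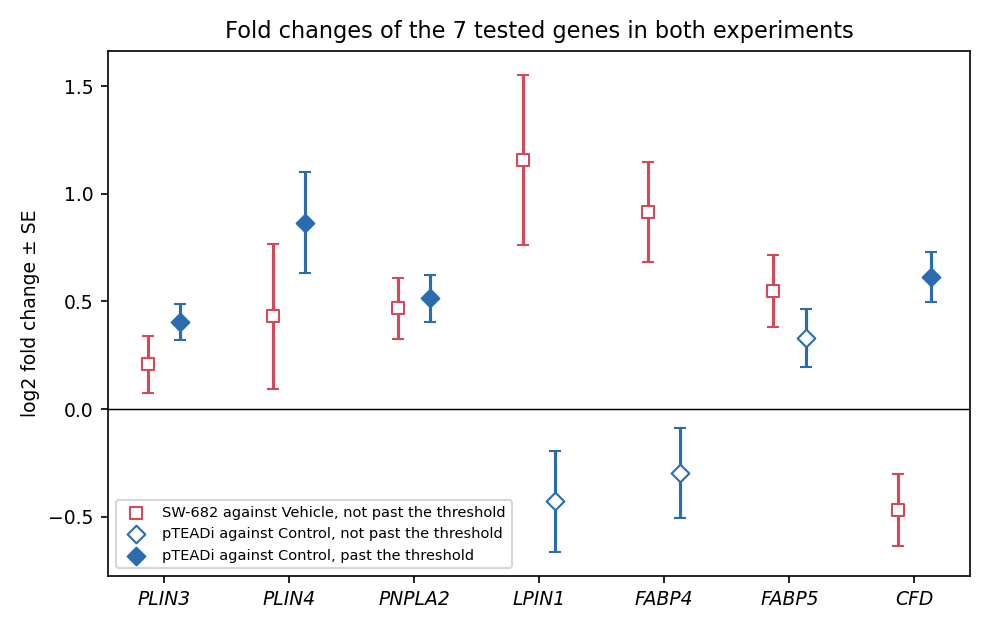
log2 fold change with its SE for the 7 tested lipid storage genes in both experiments (n = 3 libraries a group), with filled symbols for changes past the threshold. Only PLIN3, PLIN4, PNPLA2 and CFD with pTEADi are filled, and LPIN1, FABP4 and CFD have opposite signs in the experiments.

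The difference between the effects was tested as the pTEADi effect minus the SW-682 effect in 1 fit of all 12 libraries. It passed the threshold in 0 of 8 tested lipid storage genes, where 0.0129% of 15460 genes passed. DESeq2 called 1, CFD (adjusted p = 0.00243), and 0.278% of all genes. LPIN1 differed by -1.58 ± 0.53 (adjusted p = 0.585) and FABP4 by -1.21 ± 0.36 (adjusted p = 0.503). PLIN3, PLIN4, PNPLA2 and FABP5 differed by 0.20 ± 0.16, 0.44 ± 0.40, 0.05 ± 0.19 and -0.21 ± 0.22. Leaving out 1 library moved several of these differences by more than 1.5 times: PLIN3 to 0.04 without Vehicle 2, PLIN4 to 0.02 without Vehicle 1, and LPIN1 to -0.96 without smTEADi 1. FABP5 ran from -0.40 without Vehicle 2 to -0.11 without Vehicle 3, and PNPLA2 from -0.02 without Vehicle 2 to 0.20 without smTEADi 1. CFD, LPIN1 and FABP4 had an unadjusted p under 0.05, as did 7.13% of all genes.

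The uninhibited groups were not alike in these genes. The mean CPM in Control was 2.03 times that in Vehicle for CFD and 1.60 times for PNPLA2, and 0.654 times for FABP4, with no overlap of the libraries in these 3. PLIN3, PLIN4, FABP5 and LPIN1 overlapped, at ratios of 1.16, 1.47, 0.768 and 1.02. Vehicle and Control tumours belong to different experiments, so group and experiment cannot be told apart.

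The other genes of lipid storage were followed in 5 lists. These were drawn up with results of these data known, so their counts describe the listed genes only. Of all genes tested, 2.02% rose and 3.48% fell with SW-682, and 12.7% rose and 13.6% fell with pTEADi. Of 16 further genes of droplet coat, fusion and assembly, 11 were tested. With SW-682, 1 fell, the caveola protein gene CAV1 (-0.87 ± 0.21, adjusted p = 0.0464), which was also lost without smTEADi 1. With pTEADi, 1 rose, FITM2 (0.43 ± 0.11), whose product helps droplets bud from the endoplasmic reticulum, and that call was lost without pTEADi 1. Another 3 fell with pTEADi: CAV1 (-0.77 ± 0.11), CAVIN1 (-0.30 ± 0.09), a second caveola gene, and ACSL3 (-0.37 ± 0.10), an acyl-CoA synthetase of nascent droplets. Without pTEADi 2 or Control 1 only 1 of them fell. PLIN1, the main perilipin of adipocytes, was too low to test in either comparison. The list's median log2 change was -0.02 with SW-682 and 0.17 with pTEADi.

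Of 18 further genes of triglyceride and sterol ester synthesis, 14 were tested with SW-682 and 15 with pTEADi. DGAT2, which adds the last fatty acid to make triglyceride, was the 1 gene that rose with SW-682 (1.03 ± 0.23, adjusted p = 0.0421), a call also lost without smTEADi 1 or smTEADi 2. It rose with pTEADi as well, from 20.2 ± 3.77 to 62.9 ± 4.11 CPM (SD, n = 3), by 1.63 ± 0.13 (adjusted p = 2.22e-05). DGAT1, the other enzyme of that step, changed by 0.20 ± 0.11 and 0.18 ± 0.11 and passed in neither. The lipin genes LPIN2 (1.12 ± 0.25) and LPIN3 (0.32 ± 0.10) and MOGAT2 (1.61 ± 0.42, at 4 to 30 counts per library) also rose with pTEADi, of which LPIN3 and MOGAT2 are named after their values were seen. SOAT1 (-0.73 ± 0.14), which makes cholesterol ester, and GPAT3 (-2.13 ± 0.52, at 2 to 23 counts per library), an enzyme of the first acylation step, fell. The 4 that rose with pTEADi became 2 without pTEADi 1 or without Control 2, and the 2 that fell became 1 without pTEADi 2. The median log2 change was 0.08 with SW-682 and 0.18 with pTEADi.

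Of 14 further genes of lipolysis and its regulation, 13 were tested. With pTEADi 7 rose and 1 fell, where 12.7% of all genes rose and 13.6% fell. MGLL, which takes off the last fatty acid, rose from 299.6 ± 53.0 to 626 ± 36.2 CPM, by 1.06 ± 0.12 (adjusted p = 0.000132). ABHD5, the co-activator of the PNPLA2 enzyme, rose by 0.67 ± 0.14 (adjusted p = 0.00479). CES1, a carboxylesterase, rose by 4.26 ± 0.26 and the phospholipase gene PNPLA8 by 0.37 ± 0.12. HILPDA fell by 1.03 ± 0.22 on the log2 scale (adjusted p = 0.00449), but not with a spread shared by all 4 groups. The 7 became 3 without pTEADi 2 and 4 without Control 1. With SW-682, 2 of 13 rose, CES1 (1.33 ± 0.31) and PNPLA8 (0.43 ± 0.10), and these became 5 without Vehicle 2, 1 without smTEADi 2 and 0 without smTEADi 1. ABHD5 (0.62 ± 0.16, adjusted p = 0.0521) and MGLL (0.54 ± 0.15, adjusted p = 0.0602) lay just outside the threshold with SW-682. G0S2, another inhibitor of the PNPLA2 enzyme, had 0 or 1 count, and the hormone-sensitive lipase LIPE had 13 to 56 counts and passed in neither comparison. The median was 0.43 with SW-682 and 0.37 with pTEADi.

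**Figure D5:**
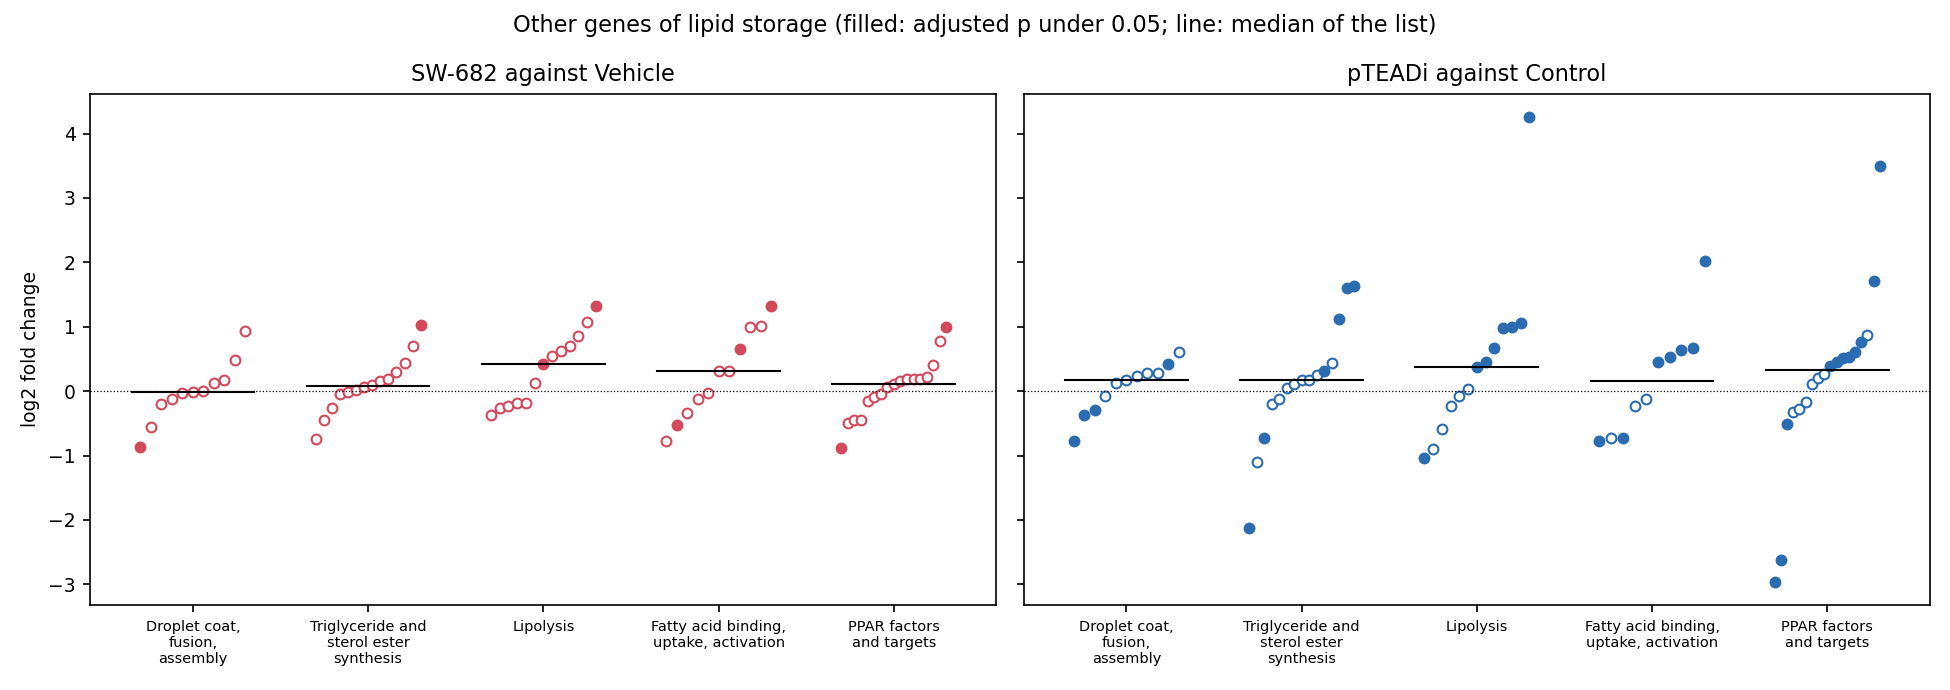
log2 fold change of each tested gene in 5 lists of lipid storage genes outside the 10, for SW-682 (left) and pTEADi (right). Filled points passed the threshold, and black lines are the medians of the lists, which run from -0.02 to 0.43.

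Of 22 further genes of fatty acid binding, uptake and activation, 11 were tested with SW-682 and 10 with pTEADi. CD36, a fatty acid translocase, rose from 42.5 ± 13.1 CPM in Vehicle to 106 ± 21.7 CPM in smTEADi tumours, by 1.32 ± 0.23 (adjusted p = 0.0365). It also rose with pTEADi, by 2.02 ± 0.19 (adjusted p = 4.31e-05). ACSL1, which activates fatty acids to acyl-CoA, rose by 0.66 ± 0.13 and 0.68 ± 0.14. SLC27A3 fell with SW-682 (-0.53 ± 0.13, adjusted p = 0.0497), and did not pass under RLE or upper-quartile scaling or without smTEADi 1 or smTEADi 2. SLC27A4, a fatty acid transporter of the epidermis, rose with pTEADi (0.63 ± 0.09), as did CRABP2 (0.45 ± 0.14) and VLDLR (0.53 ± 0.13), both named after their values were seen. ACSL4 (-0.72 ± 0.12), another acyl-CoA synthetase gene, was among those that fell with pTEADi. The 5 that rose with pTEADi became 3 without pTEADi 2. Of the 2 that rose with SW-682, 1 was lost without smTEADi 2. LPL, the lipase that feeds fatty acids to adipocytes, had 0 counts throughout. The median was 0.31 with SW-682 and 0.16 with pTEADi.

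PPAR receptors, their partners and genes taken here as their targets made up the last list. Of its 22 genes, 17 were tested with SW-682 and 18 with pTEADi. Not every listed gene is a standard PPAR target, TXNIP among these. PPARG, the adipocyte receptor, had 0 to 5 counts per library, while PPARA (0.15 ± 0.13 with SW-682, 0.11 ± 0.12 with pTEADi) and PPARD (0.12 ± 0.17 and -0.28 ± 0.12) passed in neither comparison. With pTEADi 8 of 18 rose, where 12.7% of all genes did. Among them were ACADVL (0.61 ± 0.10), a mitochondrial enzyme of fatty acid oxidation, and TXNIP (1.71 ± 0.09). ANGPTL4, an inhibitor of LPL that also responds to hypoxia, fell by 2.62 ± 0.42 on the log2 scale, from 249 ± 177 to 40.6 ± 2.43 CPM. RXRG (-2.96 ± 0.61, at 0 to 48 counts per library) and ACADM (-0.51 ± 0.14), both named after their values were seen, fell as well. CPT1A, which brings fatty acids into mitochondria, fell with SW-682 (-0.88 ± 0.13, adjusted p = 0.0365) and rose with pTEADi (0.46 ± 0.13, adjusted p = 0.0224). TXNIP was the 1 gene of the list that rose with SW-682 (1.0 ± 0.23). PDK4 had 0 counts. The 8 became 5 without pTEADi 2 or without Control 1. The call of TXNIP with SW-682 was also lost without smTEADi 1 or smTEADi 2. Without Vehicle 2, the 1 gene that fell with SW-682 became 2. The median was 0.12 with SW-682 and 0.33 with pTEADi.

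The genes most like each lipid storage gene were taken from 10627 protein-coding genes by Pearson's r of log2 CPM over the 12 libraries, after the mean of each experiment was subtracted. These r are descriptions, since the libraries share their treatment groups. PLIN3 was closest to PMVK (r = 0.978), SH3RF2 (0.977) and RPTN (0.969). PNPLA2 was closest to ZFYVE19 (0.981), SH3GLB2 (0.973) and LRCH4 (0.972), and FABP5 to SERPINB13 (0.966) and DMAC2L (0.959). LPIN1 was closest to HECA (0.966), NPEPPS (0.964) and AMPD3 (0.949), and CFD to MRC2 (0.949), GPC1 (0.926) and HADHA (0.897). For FABP4 no gene came as near: RBIS, PYROXD1 and CNST led at 0.826, 0.820 and 0.799. Among the 6 of the 10 genes that were compared, those of at least 5 CPM, PLIN3 and PNPLA2 were the most alike pair (r = 0.813, n = 12), followed by PLIN3 and FABP5 (0.712), while LPIN1 and CFD ran in opposite directions (-0.659).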

How the data were processed

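Poly-T selected RNA of 12 Cal33 xenograft tumours was read in pairs of 150 bp. The deposited values, expected counts of each gene, came from RSEM 1.3.1, which the authors ran after STAR 2.7.9a alignment to GRCh38 under Gencode 38, per the labels. The counts are not scaled between libraries. Gene names and positions came from Gencode 44. Expected counts were rounded and tested with edgeR 4.0.16 in R 4.3.3: filterByExpr with a minimum count of 10, TMM scaling, and the two-sided quasi-likelihood test with Benjamini-Hochberg adjustment over all genes tested. smTEADi was set against Vehicle and pTEADi against Control. SE were obtained from the F statistic (absolute log2 fold change over root F). CPM of single genes are TMM-scaled over all 12 libraries, summed CPM of marker lists use library totals, and log2 CPM used a pseudocount of 0.5. Depth limits single libraries to about 0.2 CPM at the floor of 3 counts.

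The 10 genes and all lists were chosen with earlier results of these data known. The rule for named genes took the 10 genes, up to 4 genes with the smallest p among those past the threshold per list and comparison, a short set of PPAR, lipase and droplet genes whatever their result, and the 3 protein-coding genes of at least 5 CPM most like each gene. A few genes that the rule names are not reported here.

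Replicate numbers were not taken as pairs: deviations of same-numbered libraries from their group means correlated at -0.173, -0.126 and 0.156 in the SW-682 experiment and at -0.0575 to -0.00165 in the pTEADi experiment. Alternatives tried were scaling by RLE or by the upper quartile, keeping genes of low count, at least 10 counts in 3 libraries, DESeq2 1.42.0, limma-voom (limma 3.58.1), a replicate block, a spread shared by all 4 groups, unrounded counts, a threshold of 0.01 and leaving out each library. Leaving out smTEADi 1 and Vehicle 2 together was chosen after seeing the data. The tests were tried on simulated data with known changes.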

Additional observations from a re-analysis of the deposited data

Results flagged for a closer look

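The effect on CPT1A, the carnitine palmitoyltransferase that brings long fatty acids into mitochondria, passed the threshold in a test of its difference between the experiments. The pTEADi effect minus the SW-682 effect was 1.34 ± 0.18 on the log2 scale (edgeR, adjusted p = 0.0451, 12 libraries). The call held with DESeq2, limma-voom and other scaling, but not with the replicate block (adjusted p = 0.127), at a threshold of 0.01, or without smTEADi 2 (0.154), Vehicle 1 (0.0699), Vehicle 3 (0.0935), pTEADi 1 (0.114), pTEADi 2 (0.173), pTEADi 3 (0.172), Control 1 (0.168) or Control 3 (0.0813). Under all alternatives the difference was 1.26 to 1.46. CPT1A had 25.5 ± 1.45 CPM in Vehicle and 13.8 ± 1.63 CPM in smTEADi tumours (SD, n = 3), and 15.7 ± 2.17 CPM in Control and 21.5 ± 1.43 CPM in pTEADi tumours. All 3 smTEADi libraries were below all Vehicle libraries, which held for 17.3% of all genes. All 3 pTEADi libraries were above all Control libraries, which held for 20.3%. The uninhibited groups differed as well, at 25.5 CPM in Vehicle and 15.7 CPM in Control, and group and experiment cannot be told apart there.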

How the results depend on the processing

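Of the 10 lipid storage genes, 0 passed the threshold with SW-682 under RLE, upper-quartile, limma-voom, unrounded counts, the replicate block, the stricter filter and a threshold of 0.01. There were 4 without a low-count filter (LPIN1, FABP5, FABP4, PNPLA2), 3 with DESeq2, 4 with a spread shared by all 4 groups (FABP5, FABP4, PNPLA2, CFD), and 0 to 1 when each library was left out. Without smTEADi 1 and Vehicle 2 together, chosen after seeing the data, there were 4 (PLIN3, FABP5, FABP4, PNPLA2), where 2073 of 14868 genes (13.9%) passed. For the difference of the effects there were 3 without a low-count filter (LPIN1, FABP4, CFD) and 1 with DESeq2 (CFD), against 0 otherwise. With pTEADi the count was 3 to 6 under all alternatives. The cause of these shifts was not tested.

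Leaving out each library moved the difference of the effects from -0.014 to 0.92 for PLIN5 and from -0.019 to 0.20 for PNPLA2, so their signs are not fixed. Of 376 alternative fold changes of these genes, which leave aside the threshold of 0.01 (where PLIN4 with pTEADi did not pass), 342 kept direction and side of the threshold, 25 came to pass it, 3 (all PLIN4 with pTEADi) no longer passed and 6 changed sign. Of the counts in lists, 684 stayed within 1.5 times and 174 moved.

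Whether replicate numbers pair the samples is not stated, and they were not taken as pairs. With the replicate number as a block, the SW-682 comparison called 0 genes of all tested, against 816 without it, the pTEADi comparison 3707 against 3864, and the difference 0 against 2. Among the 10 genes the block gave 0, 4 and 0 calls. Over all genes, the SW-682 comparison gave 335 calls when smTEADi 1 was left out, 402 when smTEADi 2 was, 1622 when Vehicle 2 was, and 0 when any other library was. The difference gave 0 to 20 calls when each library was left out. Leaving out 1 library from the pTEADi comparison gave 2325 (without pTEADi 2) to 4379 calls. DESeq2 called 1893 genes with SW-682 and 43 for the difference, a fit without a low-count filter 2101 and 377, and a spread shared by all 4 groups 2303 with SW-682. Depth limits what can be said of PLIN2, PLIN5 and CIDEC.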
